A study of Caenorhabditis elegans with 2 samples.

Results

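The synaptonemal complex and meiotic axis genes are 10 genes that encode structural proteins of meiotic chromosomes, out of 19973 nuclear protein-coding genes of Caenorhabditis elegans. They were taken by symbol from the Ensembl annotation of the WBcel235 assembly (the same as ce11), and all 10 symbols were found. Binding of PBRM-1, a polybromo protein found in PBAF, 1 of the SWI/SNF nucleosome remodellers, was measured by ChIP-seq in entire young adults, 64.5 h old, synchronised as starved larvae after bleaching. All samples came from 1 strain, RW12226, whose own pbrm-1 locus carries TY1, EGFP and 3xFLAG sequence inserted with CRISPR, and the antibody recognised GFP. The 2 biological replicates form 1 group, so there is no contrast between conditions and no test of one. A gene was called when a peak summit fell in the window of at least 1 of its transcripts, which opens 1000 bp before the 5' end and closes 200 bp after it. The labels name no sorting or dissection, so germ line and somatic chromatin were read together and a peak cannot be placed in a tissue.

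In meiosis, homologous chromosomes pair and are held together along their length by the synaptonemal complex. The SYP proteins form its central region, which links the axes of the paired homologues. The axes are built on cohesin rings closed by the kleisin subunits REC-8, COH-3 and COH-4, and carry the HORMA domain proteins HTP-3, HIM-3 and HTP-1. In C. elegans these proteins act in the germ line, where the adult gonad holds nuclei in all stages of meiotic prophase.

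PBRM-1 summits lay in the windows of 6 of the 10 genes in the series list, which the authors thresholded from both replicates. They were the central region genes syp-3 and syp-4, the axis gene him-3 and the kleisin genes coh-3, coh-4 and rec-8. The central region genes syp-1 and syp-2 and the HORMA domain genes htp-1 and htp-3 were not called. Among all nuclear protein-coding genes, 9.87% were called in the same list. The sequences around the summits are shown for the called genes outside the first chromosome, since it is at these bases that the series list placed its summits. For comparison, the stretch from 217 to 97 bp upstream of the 5' end, which is where the coh-3 window lies, is shown for the genes syp-1, syp-2 and htp-1, which were not called and have no summit there. All are in the direction of the gene named and come from the RefSeq copy of WBcel235. The windows of called genes and of the rec-8 candidate reach 60 bp to each side of the summit, except that the coh-4 window ends where the neighbouring gene pid-5 begins. The replicate 1 summits of coh-4, at chrV:4175904, and of the rec-8 candidate, at chrIV:13353336, lay outside the windows shown. Capitals mark matches, on either strand, to 10 short motifs that are spelled out after the sequences.
coh-3 summit, chrV:14457205-14457325, plus strand: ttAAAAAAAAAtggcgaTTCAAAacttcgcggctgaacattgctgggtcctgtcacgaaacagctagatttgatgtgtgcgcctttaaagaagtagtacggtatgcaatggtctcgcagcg
coh-4 summit, chrV:4175805-4175881, minus strand: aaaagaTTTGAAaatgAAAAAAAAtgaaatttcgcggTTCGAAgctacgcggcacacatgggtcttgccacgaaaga
rec-8 intron summit, chrIV:13349501-13349621, minus strand: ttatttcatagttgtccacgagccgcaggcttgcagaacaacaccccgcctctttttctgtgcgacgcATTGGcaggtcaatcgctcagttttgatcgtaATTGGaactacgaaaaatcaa
rec-8 outer promoter candidate, chrIV:13353340-13353460, minus strand: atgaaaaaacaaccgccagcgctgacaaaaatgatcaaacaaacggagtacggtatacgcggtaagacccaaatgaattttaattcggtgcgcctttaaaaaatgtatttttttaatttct
him-3 summit, chrIV:6976859-6976979, plus strand: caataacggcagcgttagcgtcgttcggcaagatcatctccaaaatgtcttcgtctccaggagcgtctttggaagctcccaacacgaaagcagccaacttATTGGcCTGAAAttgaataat
syp-1 upstream, not called, chrV:16404057-16404177, plus strand: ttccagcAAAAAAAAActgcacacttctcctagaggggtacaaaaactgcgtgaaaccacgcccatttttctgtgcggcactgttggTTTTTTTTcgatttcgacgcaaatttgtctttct
syp-2 upstream, not called, chrV:5536270-5536390, plus strand: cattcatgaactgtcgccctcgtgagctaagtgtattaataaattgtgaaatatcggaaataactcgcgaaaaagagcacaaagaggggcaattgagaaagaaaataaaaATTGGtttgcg
htp-1 upstream, not called, chrIV:5391654-5391774, minus strand: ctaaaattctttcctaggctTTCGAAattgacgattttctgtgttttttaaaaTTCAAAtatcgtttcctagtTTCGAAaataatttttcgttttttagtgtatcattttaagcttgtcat

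Each motif was sought on both strands, in the 121 bp around each summit and in promoters from 250 bp before to 50 bp after the outermost 5' end. The coh-3 and coh-4 windows each held the run TTTTTTTT, which 5.89% of all 3243 summit windows held, and 5 of the 10 member promoters held it against 32.5% of all promoters. Both also held TTTGAA, a form of the cell cycle homology region, found in 19.4% of all windows, in 6 member promoters and in 62.6% of all promoters. Its other form, TTCGAA, was in the coh-4 window and in 8.91% of all windows, and in 4 member promoters against 18.2% of all. The stretch of the uncalled htp-1 held both forms too. CCAAT was in 3 member windows, those of syp-3, him-3 and rec-8, and in 20.4% of all windows, and in 4 member promoters against 45.7% of all.

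Of the remaining motifs, 2 were each in 1 member window and the others in none. TTTCAG, a splice acceptor, was in the him-3 window only, against 11.0% of all windows, and in 4 member promoters against 51.7%. The Sp1-like CCGCCC was in the window and the promoter of syp-3 only, against 7.28% of windows and 7.87% of promoters. No member window held the TATA box TATAAA (6.51% of windows) or GAGAG (34.8%), which were in 4 and 2 member promoters against 38.0% and 40.0% of all. The E2F-like TTCCCGC was in no member window or promoter, against 2.53% of windows and 3.22% of promoters. The other E2F-like form, TTGGCGC, was also in none, against 4.01% and 2.19%. The run of T can overlap TTTCAG or TTTGAA, and a match describes letters only.

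The coh-3 summit window and the outer promoter window of rec-8 shared the 13 bases gtgcgcctttaaa and the 10 bases agtacggtat, both in the direction of the gene. The first occurred in 10 of 3243 summit windows (0.308%) and in 48 of 19973 promoters (0.240%), and the second in 5 windows (0.154%) and 23 promoters (0.115%). The coh-3 and coh-4 windows shared aaaaaaaatg, found in 15 windows (0.463%) and 605 promoters (3.03%). Stretches of this length were also shared with genes that were not called. The intron window of rec-8 and the syp-1 stretch shared the 12 bases tttttctgtgcg, found in 2 summit windows (0.0617%) and 5 promoters (0.0250%). The outer window of rec-8 and the htp-1 stretch shared ttaaaattca, on opposite strands, found in 9 windows (0.278%) and 191 promoters (0.956%). No other stretch of 10 or more bases was shared, on either strand, among the windows shown. These shared letters were sought after the windows had been read.

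Across lists, 5 of the 10 genes were called in the conservative list (8.99% of all genes), 5 in the own list of replicate 1 (4.63%) and 5 in that of replicate 2 (7.63%). The same 5 genes, syp-3, syp-4, coh-3, coh-4 and rec-8, were called in both replicates, against 4.14% of all genes. For syp-3, syp-4, coh-3 and coh-4 the replicates held the same site as the series list, while for rec-8 they held different sites. Of the 1971 genes called in the series list, 820 (41.6%) were called in both replicates' own lists and 458 (23.2%) in neither. The series list held 3243 peaks, replicate 1 held 1370 and replicate 2 held 2173. These lists carry no read depth to set those numbers against.

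**Figure D1:**
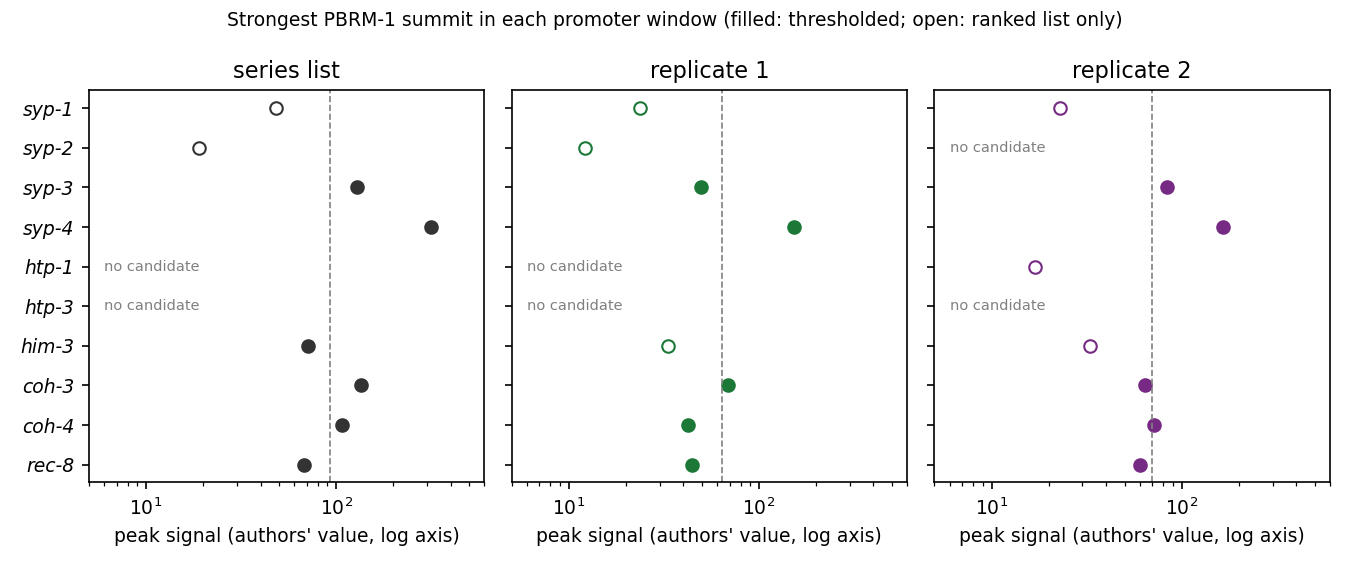
Signal of the strongest thresholded summit in the promoter window of each gene, or of the strongest candidate where no summit was thresholded. The horizontal log axis is the authors' value per peak, in the series list and in each replicate. For rec-8 the series panel shows 67.8, while a candidate in its windows had 77.0, and the replicate panels show different sites. Filled points are in the thresholded list, open points only in the ranked list of candidates, and the dashed line is the median of all peaks in the thresholded list, at 92.9, 64.2 and 69.4. syp-4 has the highest value in each panel, and htp-3 has no candidate in any.

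Among the central region genes, syp-4 had the strongest site. SYP-4 is a central region protein, and its gene on the plus strand of the first chromosome spans chrI:6847511-6849923. The series peak at chrI:6847227-6847446 had a signal of 315, the 154th of 3243, with its summit 167 bp upstream of the 5' end. The signal was 153 in replicate 1 and 164 in replicate 2, with summits 174 and 168 bp upstream, so the replicates placed it within 6 bp of each other. The summit also lay 41 bp upstream of an annotated small nuclear RNA gene, H27M09.6, 36 bp from a noncoding RNA gene, H27M09.7, and 385 bp upstream of the divergent protein-coding gene H27M09.5. In the series list 66 summits lay within 500 bp of 1 of 129 small nuclear RNA genes, with a median signal of 156, and 11 of them had a higher signal than the syp-4 peak. Which of these genes the peak belongs to was not tested.

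syp-3 encodes a further central region protein and lies at chrI:8663045-8664445 on the minus strand. Its series peak at chrI:8664419-8664560 had a signal of 128, rank 928, with the summit 102 bp upstream of the outer of its 2 annotated 5' ends. The signal was 49.5 in replicate 1 and 83.8 in replicate 2, with summits 6 bp apart. The replicate 1 value lay below the median of that list (64.2) and the replicate 2 value above the median of its list (69.4). The peak was 142 bp wide, and 69.2% of its stretches of 36 bases occurred only 1 time in the nuclear genome. This was the lowest share among the 6 called peaks, where syp-4 had 98.4% and all such stretches of the other 4 were unique. The length of the authors' reads is not known here. Its summit window had a GC content of 64.5%, against a median of 47.1% over all summit windows, and values from 36.4% (coh-4) to 53.7% (syp-4) at the other members.

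syp-1 and syp-2, both needed for the central region in C. elegans, had no summit in their windows in any thresholded list. The syp-1 window, at the 5' end of a gene at chrV:16404274-16407701, held a candidate 681 bp upstream with a signal of 48.0 in the series ranked list and a score of 468, below the 830 that the list requires. Its signals in the replicates were 23.7 and 23.0, with q values of 0.498 and 0.540. The nearest series peak to syp-1 was 34092 bp upstream. The 5' end of syp-1 lies inside another annotated protein-coding gene, F13A7.14, on the same strand.

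syp-2 (chrV:5536487-5537717) fell just outside the call: a series peak at chrV:5536532-5536851 had its summit 205 bp downstream of the 5' end, in a noncoding part of an exon. Its signal was 77.2 in the series list, rank 2206, with a score of 1000 and a q of 0.0245. In replicate 2 the same site was in the thresholded list with a signal of 51.1 and a q of 0.00700, while in replicate 1 it was a candidate only, with a signal of 21.7 and a q of 0.590. The peak thus overlapped the window without being counted, and the conservative list did not hold it.

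**Figure D2:**
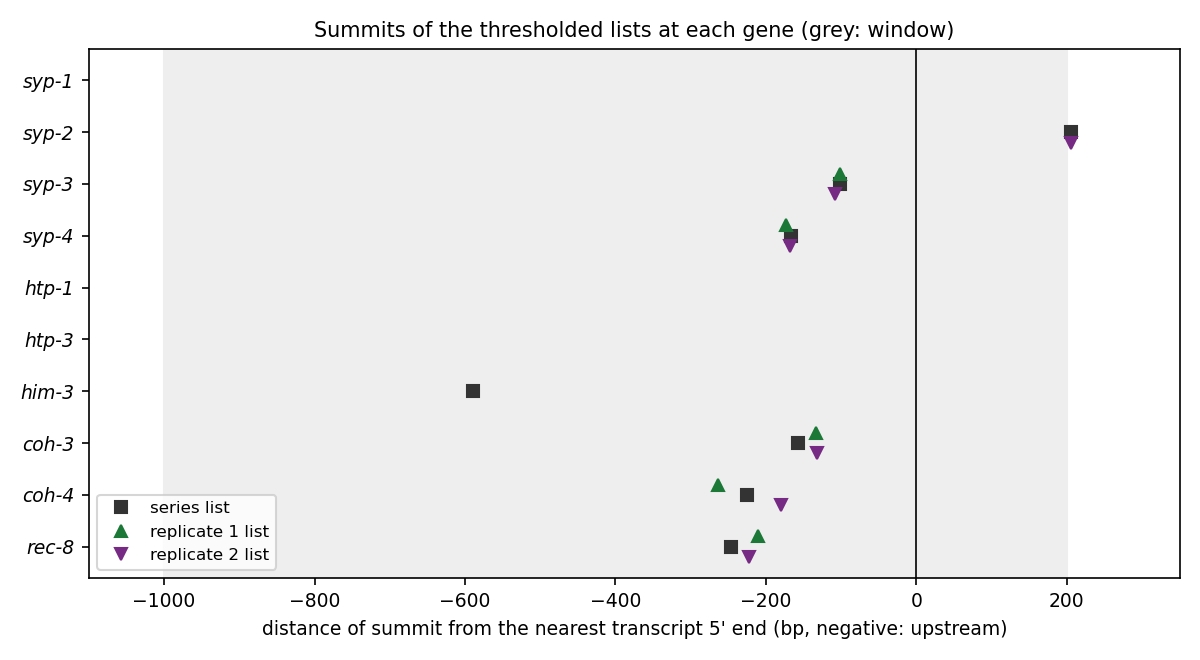
Distance in bp of each summit of the thresholded lists from the transcript 5' end whose window held it, or from the nearest 5' end outside it, for each gene. The grey band is the window used for calls. Summits of syp-3, syp-4, coh-3, coh-4 and rec-8 lie from 102 to 264 bp upstream, that of him-3 lies 589 bp upstream, and those of syp-2 lie 205 bp downstream, outside the band. The rec-8 marks are not 1 site. Those of the series and replicate 1 are measured from the inner W02A2.6c.1 5' end, and that of replicate 2 from the outermost 5' end.

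The kleisin genes coh-3 and coh-4 were called in all 4 thresholded lists. They are close paralogues with 89.2% identity over their coding exons, and in C. elegans they act redundantly. coh-3 (chrV:14457422-14460141, plus strand) had a series peak at chrV:14457105-14457424 with a signal of 135, rank 828. Its signal was 68.9 in replicate 1 and 64.3 in replicate 2, and the summits there, 133 and 132 bp upstream, were 1 bp apart. The series summit was 157 bp upstream, and it also lay 281 bp upstream of bmk-1, a divergent neighbour that encodes a kinesin motor. A weaker candidate 731 bp upstream of coh-3 had a signal of 50.8 and a score of 398.

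coh-4 (chrV:4169912-4175640, minus strand) had a series peak at chrV:4175705-4176024 with a signal of 107, rank 1272. The signal was 42.2 in replicate 1 and 71.5 in replicate 2, so it lay below the median of the first list and above that of the second. Its replicate summits, 264 and 180 bp upstream, were 84 bp apart, against a median of 24.0 bp over 3166 series peaks with a candidate in both replicates. The series summit lay 225 bp upstream of coh-4 and 17 bp upstream of pid-5, a divergent gene of the germ line small RNA pathway, and the whole gap between the 5' ends is 241 bp. The promoters of coh-3 and coh-4, from 250 bp before to 50 bp after the 5' end, had 66.1% identity in a global alignment. Those of the paralogues htp-1 and htp-2, neither of them called, had 57.5%. Those of coh-3 and him-3, which are not paralogues, had 50.1%. All stretches of 36 bases in the coh-3 and coh-4 peaks were unique in the nuclear genome, counting exact matches only. Whether reads were shared between the paralogues was not tested, and the read length and aligner are not known here.

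rec-8, the kleisin gene conserved from yeast to mammals, had different sites in the replicates. The gene lies at chrIV:13349122-13353193 on the minus strand, with 3 annotated transcripts whose 5' ends differ. The series peak at chrIV:13349401-13349720 had a signal of 67.8, rank 2634, and a q of 0.0748. It lay in an intron, 3632 bp downstream of the outermost 5' end, and counted because it was 246 bp upstream of the 5' end of a transcript of 75 bp, W02A2.6c.1. This intronic site had a signal of 44.5 in replicate 1, in its list, and of 25.9 in replicate 2, where it was a candidate with a q of 0.404. The summits of the replicates there were 2 bp apart. The intronic summit also lay 730 bp upstream of W02A2.12, an annotated protein-coding gene on the same strand.

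At the outer promoter of rec-8 the order was the other way round. A candidate with its summit 207 bp upstream of the outermost 5' end had a signal of 77.0 in the series ranked list, above that of the intronic site, and a lower q of 0.0248. Its score of 101 kept it out of the series list. It had a signal of 60.4 in replicate 2, where it was in the list with a score of 986, and of 17.4 in replicate 1, where its q was 0.769. The 529 bp between this 5' end and the divergent gene mex-5, which encodes an RNA-binding protein of embryonic polarity, hold the summit. The score is a scaled irreproducible discovery rate (IDR), and which inputs the authors compared for it in the series list is not known here. With only outermost 5' ends used, rec-8 was not called in the series list.

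**Figure D3:**
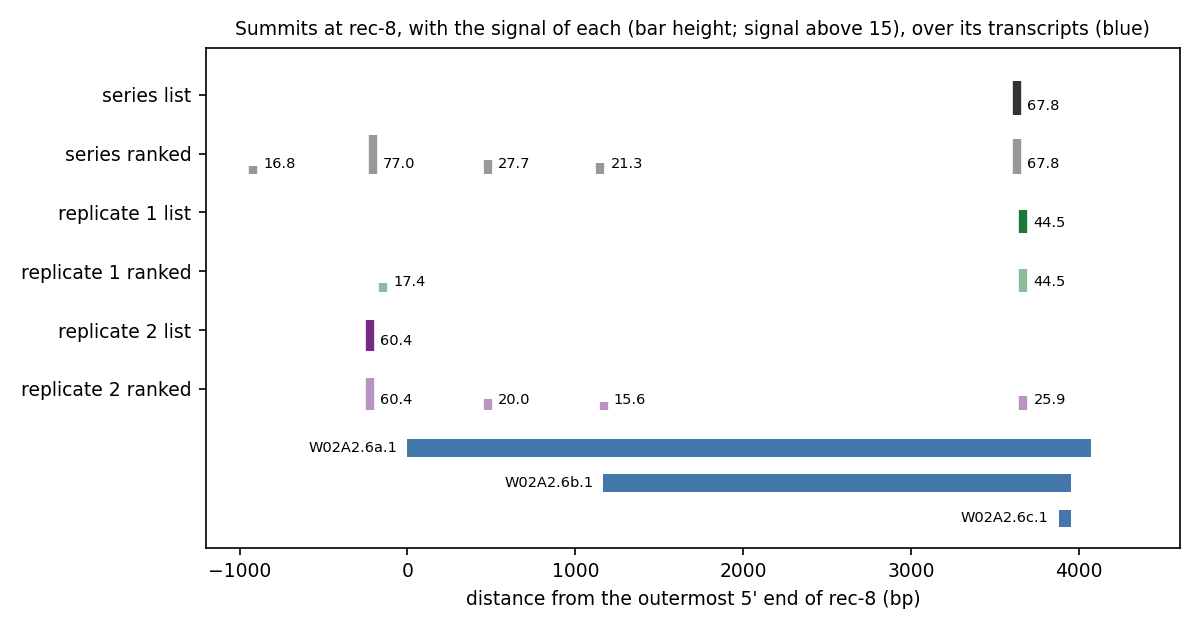
Summits in the windows of rec-8 by distance in bp from its outermost 5' end, in the thresholded and the ranked lists of the series and of each replicate. Bar height and the number beside it give the signal (candidates above 15 only), and the blue bars are the annotated transcripts, introns included. Replicate 1 has its stronger site in the intron (44.5 against 17.4) and replicate 2 at the outer promoter (60.4 against 25.9).

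Of the HORMA domain genes, only him-3 was called, and its site lay inside the neighbouring gene. him-3 (chrIV:6977508-6978765, plus strand) encodes an axis protein. The series peak at chrIV:6976759-6977078 had a signal of 70.7, rank 2498, a score of 873 and a q of 0.0512. In the replicates it was a candidate only, with a signal of 33.2 and a q of 0.119 in replicate 1 and of 32.9 and 0.135 in replicate 2, and summits 14 bp apart. Neither replicate placed it in its list, and by signal it ranked in the top 5.94% of the candidates of replicate 1 and the top 9.58% of those of replicate 2. The summit lay 589 bp upstream of him-3, in a coding exon of the divergent gene pgl-1, which encodes a P granule protein, and 224 bp downstream of a 5' end of pgl-1, outside the window of that gene.

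htp-1 and htp-3 had no candidate in their windows in the series ranked list, where 66.0% of all protein-coding genes had at least 1. HTP-3 is an axis protein on which the other HORMA domain proteins are loaded. The htp-3 window (gene at chrI:4827072-4829791) held no candidate in either replicate, and the nearest series peak was 36347 bp upstream. A replicate 1 candidate lay just outside the window, 231 bp downstream of the 5' end, with a signal of 28.6 and a q of 0.271. The stretches of 36 bases in the htp-3 window were all unique in the genome. htp-1 (chrIV:5390189-5391557) had candidates in its window with signals of 16.8 and 10.8 in replicate 2 and none in replicate 1. The first of these lay at the window's edge, 1000 bp upstream, and a series candidate with a q of 0.854 lay just outside it, 1007 bp upstream. Past the other edge, a series candidate lay 309 bp downstream of the 5' end, with a signal of 36.5 and a q of 0.743. A replicate 1 candidate lay 286 bp downstream, with 23.6 and 0.504. A series peak at chrIV:5390007-5390326, with a signal of 64.4 and in neither replicate's list, lay 1390 bp downstream of the htp-1 5' end, past the 3' end of the gene. htp-2, the close paralogue of htp-1 with 90.3% identity over coding exons, was not called either, and 92.2% of the stretches of the htp-1 window and 90.1% of those of the htp-2 window were unique.

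In the series list the 6 called genes had a median signal of 117 at their strongest summit, against 107 over all 1971 called genes. The 5 called in the replicate 1 list had a median of 49.5 there, against 69.9 over its called genes. The 5 in the replicate 2 list had 71.5 against 75.4. In the series list the summits of the 6 genes lay within 300 bp upstream of a 5' end in 5 of 6 cases, against 49.0% of called genes. One of these is rec-8, through the 5' end of its inner 75 bp transcript, with the summit 3632 bp downstream of the outermost 5' end. The strongest summit of the 6 genes also lay in the window of another protein-coding gene in 5 of 6 cases, rec-8 included, against 47.3% of called genes. These shares describe a small group and were not tested. The neighbours that shared a summit were F39H2.3 (with syp-3), H27M09.5 (syp-4), bmk-1 (coh-3), pid-5 (coh-4) and W02A2.12 (rec-8).

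The genes shared a layout that the choice by function did not use. For 9 of the 10, the nearest protein-coding gene upstream of the outermost 5' end pointed the other way, with a median gap of 432 bp. Among all protein-coding genes 42.2% had such a divergent neighbour, with a median gap of 1400 bp, and among called genes 56.8% did, with a median of 674 bp. Called and uncalled members alike had this layout, syp-1 being the exception. Among the 3436 genes with a divergent neighbour within 1000 bp, 718 (20.9%) were called. cox-16, the divergent neighbour of the uncalled syp-2, was called through the same peak that fell just outside the window of syp-2, its summit lying 449 bp upstream of cox-16, while ZK616.5 beside htp-1 and tofu-4 beside htp-3 were not.

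The same count was made in 4 other lists of meiotic genes, and differences between lists were not tested. Among 6 further synaptonemal complex and axis genes, 1 was called, syp-5, another central region gene, with a signal of 115 in the series list and candidate signals of 28.9 and 84.0 in the replicates. Only the replicate 2 list held it. syp-6, htp-2, lab-1, skr-1 and skr-2 were not called. Among 9 further cohesin genes, 4 were called, and 2 of them were in both replicates' lists. scc-2, the cohesin loader gene, had a signal of 280 (132 and 148 in the replicates), at an inner transcript in an intron. wapl-1, whose product releases cohesin, had a signal of 266 (84.8 and 179), and its summit also lay in the window of the histone H2A.Z gene htz-1. smc-3, a core cohesin subunit gene, had 69.9 and the mitotic kleisin gene scc-1, which shared its summit with rpn-5, had 63.4, with no replicate list holding either.

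Among 12 genes of homologue pairing and its checkpoint, 2 were called. plk-1, a polo-like kinase gene, had a signal of 115 in the series list and 45.2 and 73.7 in the replicates, in all lists. prom-1, an F-box gene that acts in meiotic entry and pairing, had 65.8 and shared its summit with rpoa-2. Among 29 recombination genes, 4 were called. brc-1, the BRCA1 homologue, had 202 (103 and 98.4 in the replicates), at an inner transcript in an intron. rec-1 had 84.7, mre-11, a nuclease gene of break repair, had 82.2, and zhp-2, a RING finger gene, had 73.2, with summits shared with pif-1, wdr-5.3 and lotr-1. The replicate 1 list held 1 of these 4 genes and the replicate 2 list held 2. Over these 4 lists together, 11 of 56 genes (19.6%) were called, with a median signal of 84.7, beside 9.87% and 107 over all genes. The list of replicate 1 alone gave 4 of the 56, beside 4.63% of all genes, and that of replicate 2 alone gave 6, beside 7.63%. Each of these counts differed from the 11 of the series list by over 1.5 times. The count for the 10 genes went from 6 to 5 in each, with him-3 lost and rec-8 called through a different site in each replicate.

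**Figure D4:**
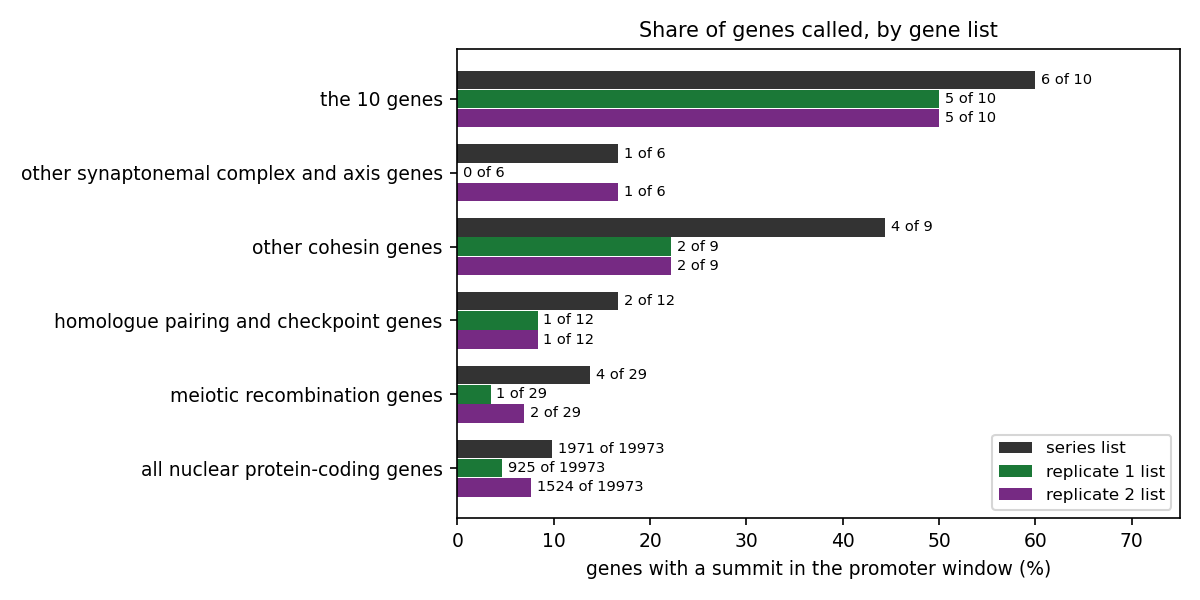
Share of genes in percent with a summit in the promoter window, for the 10 genes, for 4 other lists of meiotic genes and for all nuclear protein-coding genes, in the series list and in each replicate's own list. Counts stand beside the bars. The 10 genes have 6 of 10 in the series list and 5 of 10 in each replicate, beside 11 of 56 over the other lists and 9.87% of all genes in the series list. The lists of replicates 1 and 2 have 4.63% and 7.63% of all genes.

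pbrm-1 itself, the tagged gene, had a series peak with a signal of 150, and signals of 37.4 in replicate 1 and 106 in replicate 2. Its summit lay 793 bp upstream of the 5' end of an inner transcript. How the authors scaled the signal is not known here, so a value in replicate 1 cannot be set against that in replicate 2 as a change.

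**Figure D5:**
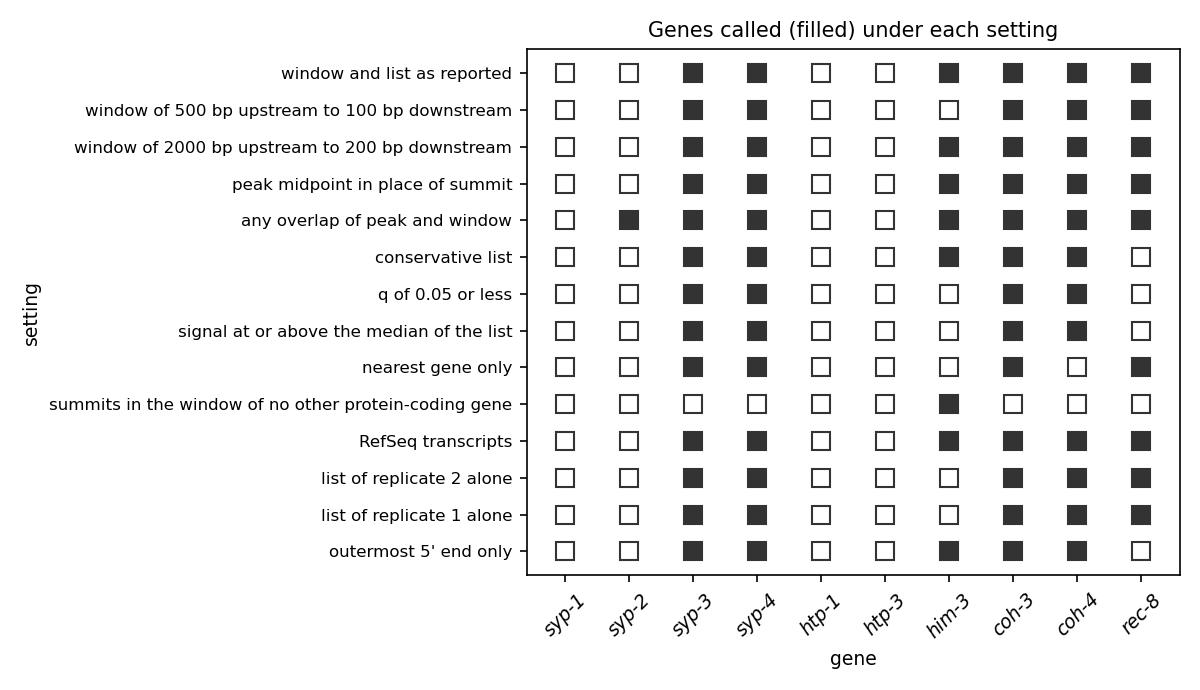
Genes called (filled squares) under the reported setting and each of 13 alternatives, 1 per line. syp-3, syp-4 and coh-3 are filled in every line except the line for summits in no other gene's window, and syp-1, htp-1 and htp-3 in none.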

How the data were processed

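PBRM-1 binding was measured by chromatin immunoprecipitation and sequencing in 2 biological replicates, numbered as separate replicates in the labels. The authors deposited 8 peak lists on ce11, without header lines: each replicate has a ranked list of candidates and a list thresholded by IDR, and the pair of replicates has 2 ranked lists, a thresholded list and a conservative thresholded list. For aligner, peak caller, read length and filters: not given in the sources used here. Also, a named control experiment was not used here. The authors deposited for each peak a signal, whose scaling is not stated, a score, which per the values is a scaled IDR with a lowest value of 830 in every thresholded list, and −log10 of the q value and of the IDR, converted here to q and IDR. These values are the authors' own and were compared inside a single list.

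Summits (peak start plus summit offset, counted from 1) were placed against Ensembl release 115 transcripts. All 6 nuclear chromosomes were used, and 0 peaks reached past a chromosome end. Scripts ran in Python 3.11.15 with Biopython 1.88 and matplotlib 3.10.9, and the window calls were tested on simulated data. Alternatives changed 1 choice at a time among window, peak position, list, filter, gene assignment, gene models and replicates. RefSeq transcripts matched 19480 of 19973 genes by symbol. With 1 group there was no test. Promoter and peak sequence came from the RefSeq copy of the assembly. Members, lists and motifs were chosen with earlier results of these data known, and the names follow a fixed rule: all members, genes sharing their summits, their nearest upstream neighbours, called genes of the other meiotic lists, htp-2 and pbrm-1. The uncalled genes of the synaptonemal complex and axis list, the genes that share a summit with a called gene of the other meiotic lists and the noncoding genes beside syp-4 fall outside it and were chosen after their values were seen.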

Additional observations from a re-analysis of the deposited data

How the results depend on the processing

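The count of 6 called genes stayed within 1.5 times under 12 of the 13 alternatives. It was 7 with any overlap of peak and window, which added syp-2, and 10.5% of all genes were called, beside 9.87% in the reported setting. It was 4 with a q of 0.05 or less (8.52% of all genes) or with signals at or above the list's median (6.01%). Both settings kept syp-3, syp-4, coh-3 and coh-4. It was also 4 with summits assigned to the nearest gene only (7.50%), where rec-8 was called and coh-4 was not. The coh-4 summit lay 17 bp upstream of pid-5 and 225 bp upstream of coh-4. The count fell to 1, him-3, when summits in the window of another protein-coding gene were left out, an alternative under which all genes called fell from 1971 to 1069. Without replicate 1 and without replicate 2 the count was 5 each time, while all genes called went from 1971 to 1524 (7.63%) and 925 (4.63%). Counts in the other meiotic lists moved too. Without replicate 1 and without replicate 2, respectively, recombination genes went from 4 to 2 and 1, and cohesin genes from 4 to 2 and 2. Pairing genes went from 2 to 1 and 1, and the other synaptonemal complex and axis genes from 1 to 1 and 0. him-3 was called under 7 of the 13 alternatives and rec-8 under 8. The outermost 5' end alternative, which gave 5 (9.14% of all genes), was chosen after seeing the data. Peak lists give no depth, so a gene without a peak was not detected at this depth rather than shown to be free of PBRM-1. No paired analysis was possible because there is 1 group.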
